A study of Rattus norvegicus with 8 samples.

Results

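The miR-101 family was represented by 2 mature microRNAs (miRNAs), rno-miR-101a-3p and rno-miR-101b-3p, of 719 rat miRNAs on the array. Both were chosen by their measured levels on the 2 control arrays, because control replicate 1 lay far below control replicate 2, so every value that rests on the control arrays is given as a description, with no test. miRNAs are short RNAs that guide Argonaute proteins to messenger RNAs through their seed, the bases near the 5′ end, and lower the output of those messages. miR-101 is known as a growth-restraining family that is reduced in many tumours, gliomas included, and that represses Ezh2, the histone methyltransferase of Polycomb complex 2, as well as the prostaglandin synthase Ptgs2 (Cox-2) and the survival factor Mcl1.

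All samples were C6 cells, an established rat glial tumour line, so every group shares 1 line and the same serum-containing medium. The cells were untreated (the labels name no vehicle) or received, daily for 5 days, clozapine at 25 µg/ml, haloperidol at 2 µg/ml or risperidone at 4 µg/ml; all 3 are antipsychotics. Each group had 2 arrays, called biological repeats by the study, and the 8 single-colour arrays shared 1 slide, with the replicate number equal to the slide row and the treatment equal to the slide column. Column and treatment therefore cannot be told apart.

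The RefSeq mature sequences (build GRCr8) are shown because the members share 1 seed, marked in capitals (bases 2 to 8), and differ elsewhere by a single base. The miR-144-3p sequence is added because its first 7 bases are those of miR-101.

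miR-101a-3p: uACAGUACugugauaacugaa
miR-101b-3p: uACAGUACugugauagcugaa
miR-144-3p: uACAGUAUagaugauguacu

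Counted from the 5′ end of miR-101a-3p, the only substitution to miR-101b-3p is A16G, outside the seed. The 21-base miR-101a-3p lies on the minus strand at chr5:121081691-121081711, in the hairpin gene Mir101a, which falls within the bounds of the long non-coding RNA gene LOC120102934. miR-101b-3p, also 21 bases, lies on the plus strand at chr1:236273982-236274002, in the hairpin gene Mir101-2, within the bounds of the protein-coding gene Rcl1. The hairpins, with the measured 3′ arm in capitals, are 75 and 97 bases long and show where the near-identical arms sit in 2 unlike precursors.

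Mir101a: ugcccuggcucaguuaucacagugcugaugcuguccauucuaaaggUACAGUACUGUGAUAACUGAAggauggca
Mir101-2: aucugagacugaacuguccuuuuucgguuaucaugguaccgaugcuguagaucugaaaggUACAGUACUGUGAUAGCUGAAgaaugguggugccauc

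Only the 3′ arms gave signal. miR-101a-3p and miR-101b-3p were detected on 8 of 8 arrays, whereas the opposite arms, miR-101a-5p and miR-101b-5p, were detected on 0 of 8, as was miR-144-3p, an erythroid miRNA. The 2 passenger arms differ from each other at 5 positions, and their background-subtracted signals stayed below 0 on every array.

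The 4 miRNAs listed as markers of glial tumours (miR-21-5p, miR-125b-5p, miR-221-3p and miR-222-3p) were detected on all 8 arrays. So were miR-338-3p and miR-219-5p of the oligodendrocyte list, so detection alone does not set the cell type. The neuronal miR-124-3p and miR-138-5p and the 4 epithelial markers were detected on none, although miR-128-3p and miR-9a-5p of the neuronal list were detected on all 8. None of the 4 leukocyte markers was detected on every array. Of these, miR-150-5p was detected on 5 arrays, miR-223-3p on 4, miR-142-3p on 3 and miR-142-5p on 0. Of the erythroid markers miR-144-3p was detected on none and miR-451-5p on 2. The number of miRNAs detected ran from 193 to 254 per array. The 75th percentile of the probe signal, by which each array was scaled, ran from 383 on risperidone replicate 2 to 1479 on haloperidol replicate 1, and was 1038 and 948 on the controls. The array that deviated most from the rest was control replicate 1 (mean squared deviation on the log2 scale 0.535, elsewhere 0.0869 to 0.283). Results that rest on it are given with and without it.

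Levels are log2 values of the summed probe signal relative to the array's 75th percentile, so 0 is that percentile and each unit is a doubling. miR-101a-3p, encoded by Mir101a, stood at -3.62 on control replicate 1 and -1.90 on control replicate 2. Replicates 1 and 2 stood at -1.77 and -1.46 under haloperidol, at -1.61 and -1.90 under risperidone, and at -2.29 and -1.35 under clozapine. Control replicate 1 was thus low on its own, while control replicate 2 fell inside the range of the 6 drug arrays.

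miR-101b-3p, encoded by Mir101-2, followed the same order of arrays at the extremes. The controls read -3.48 and -1.96, the haloperidol arrays -2.08 and -1.85, the risperidone arrays -1.89 and -2.29, and the clozapine arrays -2.53 and -1.67. For both members the lowest and the highest drug array were the 2 clozapine arrays.

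**Figure D1:**
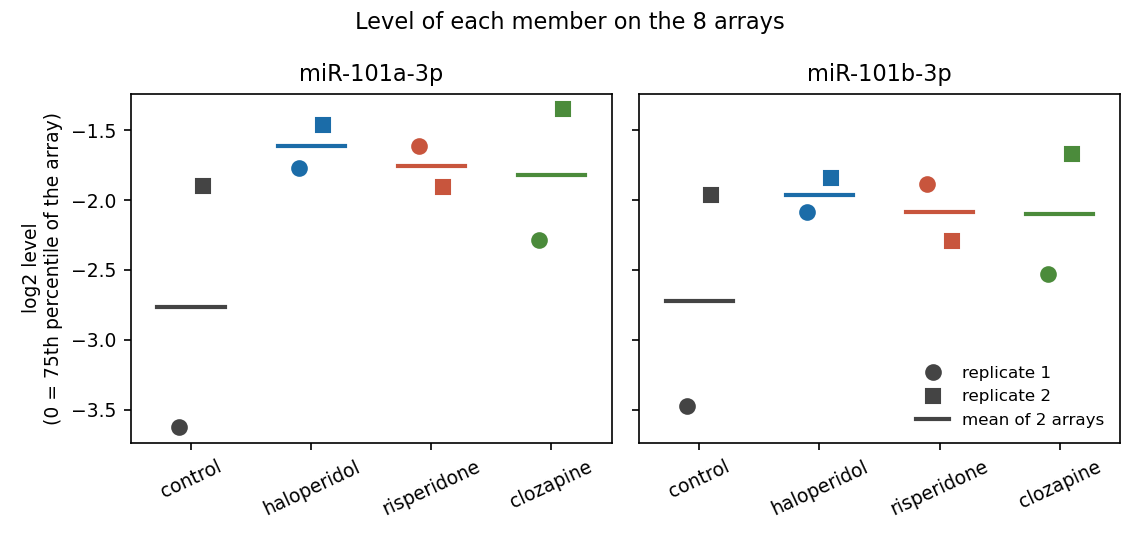
Log2 level of miR-101a-3p and miR-101b-3p relative to the array's 75th percentile (vertical axis) in the 4 groups (horizontal axis); circles are replicate 1, squares replicate 2 and bars the mean of 2 arrays. Control replicate 1, at -3.62 and -3.48, lies below the 7 other arrays in both panels, and the drug arrays span -2.29 to -1.35 and -2.53 to -1.67.

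As group means, miR-101a-3p was at -2.76 ± 1.22 in controls, -1.62 ± 0.22 under haloperidol, -1.76 ± 0.21 under risperidone and -1.82 ± 0.66 under clozapine (SD, n = 2 arrays each). miR-101b-3p was at -2.72 ± 1.07, -1.96 ± 0.17, -2.09 ± 0.28 and -2.10 ± 0.61 in the same order (SD, n = 2). The order of the means was haloperidol, risperidone, clozapine and control for both members, and each step between neighbours was smaller than the larger of their SDs.

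The gap within the control pair was -1.72 for miR-101a-3p and -1.51 for miR-101b-3p (log2, replicate 1 minus replicate 2), or 3.30-fold and 2.85-fold lower on replicate 1. These are the values that chose the members. They ranked 7 and 14 from the lowest among the 243 miRNAs that entered the fits (both arrays of some group detected them), whose median was 0.0055. The rule sets no numerical limit. The neighbours of miR-101a-3p in that order were miR-29b-3p (-1.75) and miR-19a-3p (-1.70), and those of miR-101b-3p were miR-24-2-5p (-1.61) and miR-199a-5p (-1.49). A gap below -1 was found for 11.9% of the 243 miRNAs, and control replicate 1 was below all 7 other arrays for 23.9% of them.

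Among the drug groups, which the choice did not use, the replicate gaps of the members were smaller. Smaller gaps there follow from choosing the members by a large control gap. For miR-101a-3p they were -0.31 with haloperidol, 0.29 with risperidone and -0.93 with clozapine, and for miR-101b-3p -0.24, 0.40 and -0.86. Of the 243 miRNAs, 40.3%, 56.4% and 11.9% had a larger gap than miR-101a-3p in these groups, and 49.8%, 44.4% and 14.0% a larger gap than miR-101b-3p. Clozapine was therefore the drug group in which both members varied most between its 2 arrays.

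Each member was read by 2 probes of 10 spots each, and all 4 probes were low on control replicate 1. For miR-101a-3p, probe A_26_P00001303 gave a background-subtracted signal of 37.5 ± 4.30 on control replicate 1 and 117 ± 4.71 on control replicate 2 (SD over 10 spots, which share 1 RNA sample). Probe A_26_P00002576 gave 46.8 ± 3.14 and 137 ± 4.02. For miR-101b-3p, probe A_26_P00001156 gave 36.1 ± 2.06 and 94.9 ± 5.07. Its other probe, A_26_P00002566, gave 57.2 ± 2.15 over 9 spots and 148 ± 5.22 over 10. Every spot used was well above background on every array.

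After scaling, the control gap was -1.77 and -1.68 for the miR-101a-3p probes and -1.52 and -1.51 for the miR-101b-3p probes. Spot by spot, 20 of 20 miR-101a-3p spots and 19 of 19 usable miR-101b-3p spots were lower on control replicate 1 than at the same position on control replicate 2. The spot differences ran from -2.16 to -1.55 and from -1.67 to -1.39. The spots were spread from row 2 to row 177 and from row 9 to row 190 of the 192 rows of the array.

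The gap also stood in the unscaled values. The authors' gene-level signal of miR-101a-3p was 58.3 on control replicate 1 and 175 on control replicate 2, and that of miR-101b-3p was 64.5 and 167. On the dimmest array, risperidone replicate 2, the unscaled signals were 70.3 and 53.8, and only that of miR-101b-3p was below control replicate 1. That array's 75th percentile was also the lowest.

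**Figure D2:**
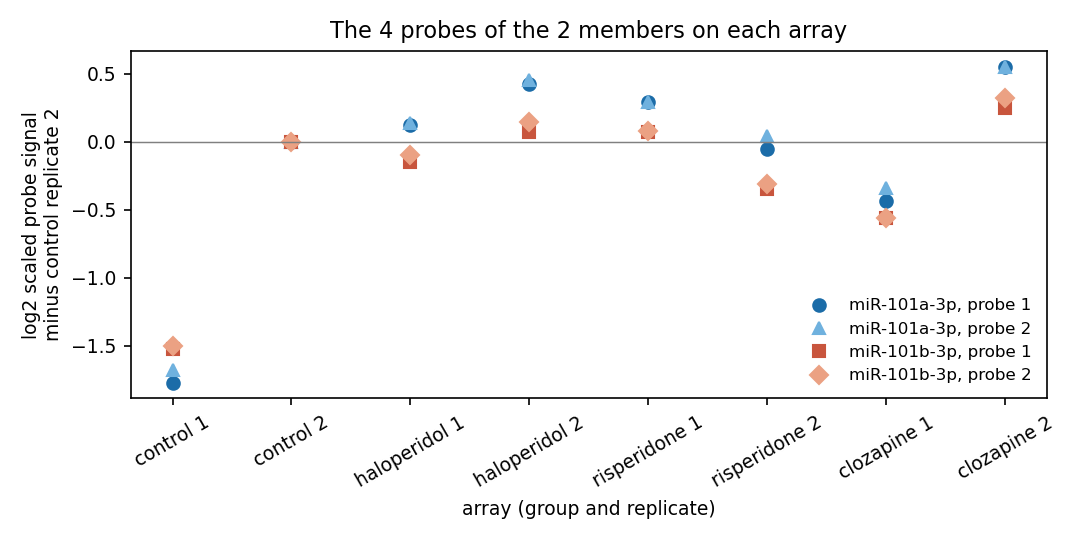
Log2 scaled signal of the 4 probes on each array, minus the same probe's value on control replicate 2 (vertical axis), by array (horizontal axis); probe 1 and probe 2 of miR-101a-3p are A_26_P00001303 and A_26_P00002576, those of miR-101b-3p A_26_P00001156 and A_26_P00002566. The probes of 1 miRNA lie close together on every array, and all 4 are between -1.77 and -1.51 on control replicate 1.

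The 2 probes of a member moved together. The difference between the log2 signals of the miR-101a-3p probes varied over the 8 arrays by 0.10, and that of the miR-101b-3p probes by 0.076. The difference between the 2 members varied by 0.53, or by 0.33 without control replicate 1.

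That difference, miR-101a-3p minus miR-101b-3p within an array, was singled out after its values were seen. It was -0.15 and 0.061 on the control arrays. Under haloperidol it was 0.31 and 0.38, under risperidone 0.28 and 0.39, and under clozapine 0.24 and 0.32. All 6 drug arrays lay above both controls. How many other pairs of miRNAs show such a separation was not counted. The mean of the drug arrays, with the drugs pooled, was 0.32 ± 0.058 (SD, n = 6) against -0.043 in controls, a difference of 0.36. Dividing an array by its percentile leaves this difference unchanged, and all 4 pairings of a miR-101a-3p probe with a miR-101b-3p probe gave 0.35 to 0.39 with 6 of 6 drug arrays above both controls. Without control replicate 1 the difference was 0.26, and without control replicate 2 it was 0.47. As the controls are those that chose the members, no test is given. How far the probes of either miRNA also bind the other, which differs by 1 base, was not tested.

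**Figure D3:**
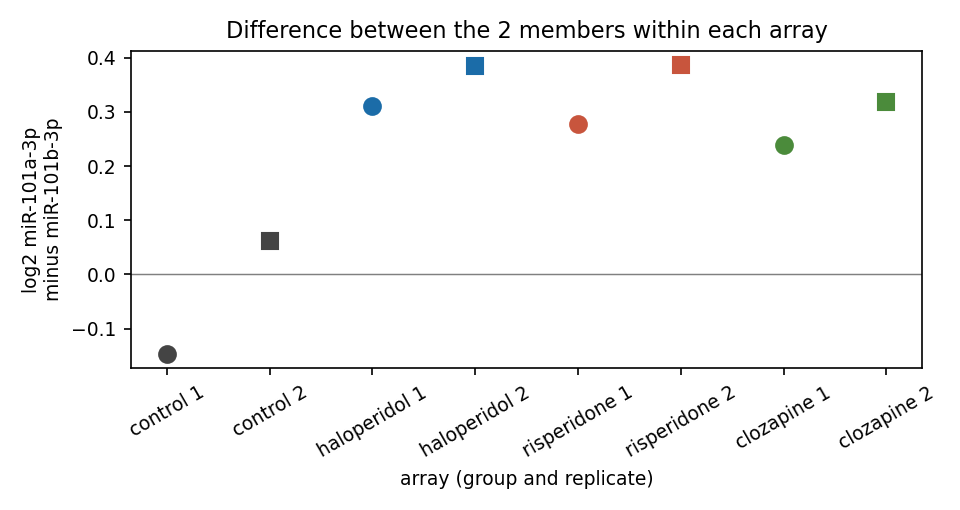
Log2 level of miR-101a-3p minus that of miR-101b-3p within each array (vertical axis), by array (horizontal axis); circles are replicate 1 and squares replicate 2. The controls lie at -0.15 and 0.061 and the 6 drug arrays between 0.24 and 0.39.

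Drug against control asks whether an antipsychotic alters the level of the family. Against the mean of both controls, miR-101a-3p was higher by 1.15 with haloperidol, 1.0 with risperidone and 0.94 with clozapine on the log2 scale, or 2.21-fold, 2.01-fold and 1.92-fold. miR-101b-3p was higher by 0.75, 0.63 and 0.62, or 1.69-fold, 1.55-fold and 1.54-fold. These differences are smaller than the control SD of each member. Over all 243 miRNAs the medians were -0.13, -0.13 and -0.17.

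The size of these differences depended on which control array was used. Against control replicate 1 alone, miR-101a-3p was higher by 2.01, 1.87 and 1.80 under haloperidol, risperidone and clozapine, or 4.02-fold, 3.64-fold and 3.49-fold. miR-101b-3p was higher by 1.51, 1.39 and 1.38, or 2.85-fold, 2.61-fold and 2.60-fold. All 6 drug arrays lay above control replicate 1 for both members.

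Against control replicate 2 alone, miR-101a-3p was at 0.28, 0.14 and 0.083 under the same drugs, or 1.22-fold, 1.11-fold and 1.06-fold. miR-101b-3p was at -0.0026, -0.13 and -0.14. Of the 6 drug arrays, 4 lay above control replicate 2 for miR-101a-3p (both haloperidol arrays and 1 of each other drug) and 3 for miR-101b-3p (1 of each drug). The medians of all miRNAs against control replicate 2 were -0.11, -0.13 and -0.17.

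Within slide rows the picture was the same. In row 1, where the control was replicate 1, miR-101a-3p was higher than control by 1.85 with haloperidol, 2.01 with risperidone and 1.34 with clozapine, and miR-101b-3p by 1.39, 1.59 and 0.95. In row 2 the values were 0.44, -0.0020 and 0.55 for miR-101a-3p and 0.12, -0.33 and 0.29 for miR-101b-3p.

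Each probe repeated the split. Against control replicate 1, the probe values for the 3 drugs lay between 1.78 and 2.05 for miR-101a-3p and between 1.37 and 1.53 for miR-101b-3p. Against control replicate 2 they lay between 0.056 and 0.29 and between -0.16 and 0.021.

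Across the whole array, limma called 0 of 243 miRNAs (0%) for each drug against control at an adjusted p under 0.05, while 16, 24 and 35 miRNAs (6.58%, 9.88% and 14.4%) had an unadjusted p under 0.05. The fit called 5, 8 and 8 miRNAs when control replicate 2 was left out, and 0 when control replicate 1 was. With the slide row, which equals the replicate number, as a block it called 0, 1 and 4, neither member among them. The share of miRNAs whose drug arrays both lay above both controls was 10.3% with haloperidol, where miR-101a-3p was 1 of them, 6.17% with risperidone and 5.35% with clozapine. Both arrays lay below both controls for 32.9%, 32.9% and 34.2% of miRNAs.

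Drug against drug, in contrast, used no control array, and the comparisons were fitted with limma on the 6 drug arrays alone. Risperidone against haloperidol gave -0.14 for miR-101a-3p (log2, SE 0.37, adjusted p = 0.992) and -0.12 for miR-101b-3p (SE 0.35, adjusted p = 0.992). Clozapine against haloperidol gave -0.20 (adjusted p = 1) and -0.13 (adjusted p = 1). Clozapine against risperidone gave -0.062 and -0.0089 (adjusted p = 1 for both).

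No difference between drugs passed the test for either member, and the drug arrays overlapped in all 3 comparisons. Over the 238 miRNAs tested, both arrays lay above both arrays of the other drug for 13% (risperidone over haloperidol), 6.3% (clozapine over haloperidol) and 5.88% (clozapine over risperidone), and below for 10.1%, 16% and 8.82%. The 95% confidence intervals left room for changes of about 2-fold either way. For miR-101a-3p they ran from 0.454-fold to 1.81-fold for risperidone against haloperidol, 0.435-fold to 1.74-fold for clozapine against haloperidol and 0.480-fold to 1.91-fold for clozapine against risperidone. For miR-101b-3p they ran from 0.475-fold to 1.77-fold, 0.472-fold to 1.76-fold and 0.515-fold to 1.92-fold.

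limma called 0 of 238 miRNAs (0%) in each drug pair, and 0, 3 and 7 miRNAs (0%, 1.26% and 2.94%) had an unadjusted p under 0.05. The direction for the members turned with the slide row. Risperidone minus haloperidol was 0.16 in row 1 and -0.44 in row 2 for miR-101a-3p, and 0.20 and -0.44 for miR-101b-3p. Clozapine minus haloperidol was -0.51 and 0.11 for miR-101a-3p, and clozapine minus risperidone -0.68 and 0.55. The signs of these differences also turned with the scaling.

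The miRNAs whose pattern was most like that of the family were found among the other 183 detected on all 8 arrays, by Pearson's r with the mean level of both members. The 6 closest were miR-19a-3p (r = 0.996), miR-106b-5p (0.995), miR-301a-3p (0.992), miR-29b-3p (0.988), miR-18a-5p (0.986) and miR-19b-3p (0.985). miR-19a, miR-19b and miR-18a belong to the growth-promoting miR-17 to miR-92a cluster and miR-106b to a paralogous cluster, whereas miR-29b is known for repressing collagens. The arrays in such an r share their RNA sample and scaling with the members. The median r of the 183 was -0.23, and 20 of them (10.9%) exceeded 0.9.

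The same r is given for fewer of the arrays that picked these miRNAs. Without control replicate 1, r over 7 arrays was 0.982 for miR-19a-3p, 0.971 for miR-106b-5p, 0.960 for miR-301a-3p, 0.962 for miR-29b-3p, 0.929 for miR-18a-5p and 0.918 for miR-19b-3p, against a median of -0.11, and 8 of 183 (4.37%) exceeded 0.9. Over the 6 drug arrays alone, r was 0.987, 0.996, 0.961, 0.967, 0.957 and 0.930 in the same order, against a median of -0.099, and 12 of 183 (6.56%) exceeded 0.9. Of the 6 closest, 5 were among the 6 closest without control replicate 1 and 4 over the drug arrays alone.

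miR-19a-3p, picked for the highest r over these same arrays, shows the shared course. It read -0.65 and 1.05 on the controls, 1.03 and 1.42 under haloperidol, 1.33 and 1.0 under risperidone, and 0.70 and 1.52 under clozapine. As for the family, clozapine replicate 1 was the lowest drug array and clozapine replicate 2 the highest.

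**Figure D4:**
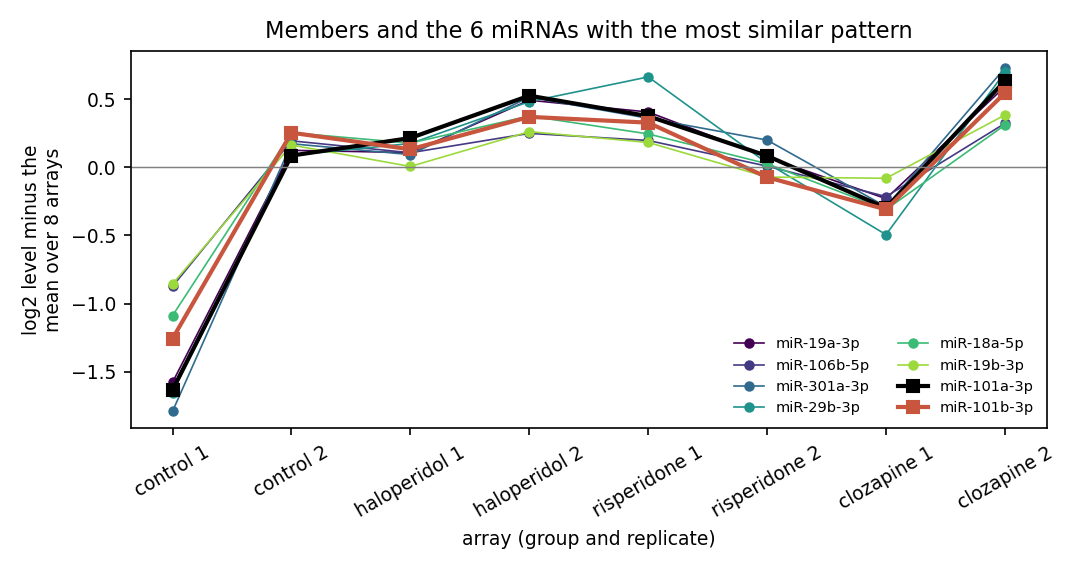
Log2 level minus the miRNA's own mean over 8 arrays (vertical axis) by array (horizontal axis) for the members (thick lines, squares) and the 6 miRNAs with the highest r (thin lines, circles); lines join arrays only to guide the eye. All 8 dip on control replicate 1, and among the drug arrays they are lowest on clozapine replicate 1. The 6 were picked by their r with the members over these same arrays, so a shared course follows from the choice.

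The sequences of 5 of these 6 miRNAs are given to compare their seeds with that of the family.

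miR-19a-3p: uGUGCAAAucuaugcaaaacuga
miR-19b-3p: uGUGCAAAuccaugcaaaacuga
miR-106b-5p: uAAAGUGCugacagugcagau
miR-18a-5p: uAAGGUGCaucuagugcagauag
miR-29b-3p: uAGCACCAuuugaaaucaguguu

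Apart from miR-19a-3p and miR-19b-3p, which share 1 seed, each has a seed of its own, and none has the miR-101 seed ACAGUAC. G and C bases make up 34.8% of miR-19a-3p and miR-29b-3p, 39.1% of miR-19b-3p, 42.9% of miR-106b-5p and 43.5% of miR-18a-5p, beside 33.3% of miR-101a-3p and 38.1% of miR-101b-3p.

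The control gap is given beside base composition as a description. Mature sequences were found for 164 of the 185 miRNAs detected on all arrays (88.6%), with a median G and C content of 45.5%. Over these 164 miRNAs the correlation of the control gap with that content was r = -0.034, over miRNAs that share the same 2 arrays, beside -0.18, -0.35 and 0.20 for the replicate gaps with haloperidol, risperidone and clozapine. The part of base composition in these gaps was not tested. Among the 26 other miRNAs with no more G and C than miR-101b-3p, the median control gap was 0.23 and 11 lay below 0. Of the 26, 1, miR-29b-3p, lay at or below miR-101a-3p and 2 at or below miR-101b-3p. The low place of the members among them follows from how they were chosen.

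**Figure D5:**
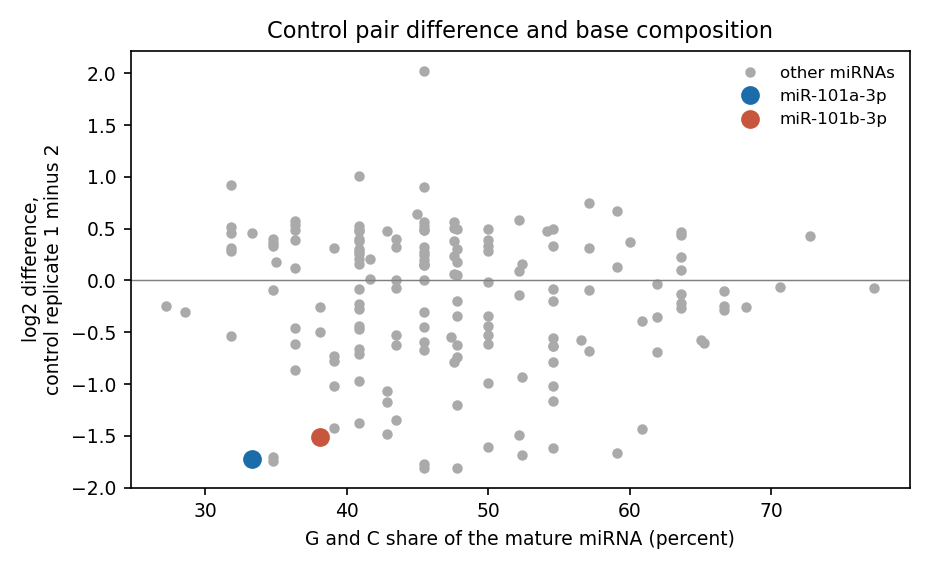
Log2 difference between control replicate 1 and control replicate 2 (vertical axis) against the G and C content of the mature miRNA in percent (horizontal axis) for 164 miRNAs detected on all arrays. The members, chosen for a low value on the vertical axis, lie at -1.72 and -1.51, and r over all points is -0.034.

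Other miRNAs known to repress Ezh2 are given beside the family, although an unselected list would lie above members chosen for a low value on control replicate 1. Of 13 listed (miR-26a-5p, miR-26b-5p, miR-98-5p, miR-214-3p, miR-124-3p, miR-138-5p and 7 let-7 miRNAs), 11 were tested, since miR-124-3p and miR-138-5p were detected on 0 arrays. Of these 11, 10 were higher on control replicate 1 than on control replicate 2, with a median of 0.40 beside 0.0055 for all miRNAs, of which 114 of 243 lay below 0. Of the 11, 8 belong to the let-7 and miR-98 family and share a seed. miR-26b-5p, of the best known Ezh2-targeting family beside miR-101, stood at 1.30 and 0.84, and let-7a-5p at 4.38 and 3.85. miR-214-3p was the exception, at -5.29 and -4.67, near the floor of the scale (-6.12).

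Against the mean of both controls, 11 of 11 lay below 0 under each drug. With haloperidol, risperidone and clozapine the medians were -0.34, -0.40 and -0.40, beside -0.13, -0.13 and -0.17 for all miRNAs. Most miRNAs tested thus lay below the control mean as well, and limma called 0 of the 11. With the percentile taken over all probes, the list's medians turned to 0.18 and 0.25 for risperidone and clozapine, beside 0.34 and 0.43 for all miRNAs. Against control replicate 2 alone, 9, 10 and 9 of 11 lay below 0 and the medians were -0.11, -0.14 and -0.15, close to those of all miRNAs (-0.11, -0.13 and -0.17). Between drugs the list's medians were -0.084, -0.077 and -0.0077, beside -0.069, -0.089 and -0.035.

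Markers of oligodendrocytes were also compared on the control pair, where 114 of all 243 miRNAs were lower on control replicate 1. Of 3 listed, 2 were on the array and both were lower on control replicate 1: miR-338-3p stood at -1.30 and -0.52 and miR-219-5p at -4.99 and -3.65. The other arm, miR-338-5p, which was not on the list, went the opposite way and was higher on control replicate 1 by 0.90. The summed level of miR-338-3p and miR-219-5p, in which miR-338-3p weighed most, was -1.19 and -0.37 on the controls. It was 0.0060 to 0.43 with haloperidol, -0.12 to 0.66 with risperidone and 0.19 to 0.29 with clozapine. Of 3 muscle markers, miR-206-3p was higher on control replicate 1, at -3.72 against -4.90, and miR-1-3p and miR-133a-3p were detected on 0 arrays. As all samples were C6 cells, these are marker levels within the same line. Any link between them and the levels of miR-101 was not tested.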

How the data were processed

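Each array was hybridised with 100 ng of Cy3-labelled total RNA, per the labels. The files the authors deposited hold linear intensity values without scaling across arrays, made with Agilent Feature Extraction 10.7.3.1 per the file headers. Detection and outlier flags in the deposited files are 0 or 1. Outlier spots were left out, the remaining background-subtracted spots of a probe averaged and a miRNA's probes summed. Each array was then scaled to its 75th percentile, taken from the 292 probes that every array measured above background. Values were floored at the 5th percentile of detected values (-6.12) and taken to log2. No spot was saturated.

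The 2 members, the lists and the tests were chosen with earlier results of these data known. Drug pairs were fitted with limma 3.58.1 in R 4.3.3 on the 6 drug arrays (238 miRNAs detected on both arrays of at least 1 drug group). Each drug was fitted against control on 8 arrays (243 miRNAs, 4 residual degrees of freedom), for the background counts alone. Tests were two-sided with Benjamini-Hochberg adjustment at 0.05. The fit was run on simulated data with independent noise, where the check was that the mean bias of the estimated differences was small. Its power to detect a change with 2 arrays a group is not given here. With 2 arrays a group, the smallest p of an exact permutation test is 0.333, so none was used. Precision is limited by the array number, and levels of different probes cannot be ranked against each other.

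Named miRNAs were the members with their other arms, miR-144-3p, the Ezh2 list, the 6 with the highest r and the 6 lowest on control replicate 1 among those detected on all arrays. Alternatives changed the scaling, background correction, probe summary, floor, filter, block, variance model and arrays. Cyclic loess was run over the tested miRNAs. The normexp correction, with offset 50, used spot and background medians, with backgrounds flagged as outliers set to the array median, because a few spots of very high local background on clozapine replicate 1 otherwise distorted its fit.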

Additional observations from a re-analysis of the deposited data

How the results depend on the processing

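The control gap of both members kept its sign under each scaling, background, probe summary and floor tried. It ran from -1.74 to -0.99 for miR-101a-3p and from -1.51 to -0.88 for miR-101b-3p, and was smallest with normexp. Each setting reprocessed the control arrays whose gap chose the members, so the kept sign is no independent support. The difference between the members, singled out after its values were seen, stayed higher on drug arrays (0.21 to 0.47, leaving out single arrays included). Against control, both members stayed above 0 under each scaling, but the size moved: risperidone and clozapine gave 0.39 and 0.52 for miR-101a-3p and 0.012 and 0.19 for miR-101b-3p without scaling, and 1.59 and 1.59, and 1.22 and 1.27, with the percentile over all probes. Leaving out single arrays gave 0.28 to 2.01, 0.14 to 1.87 and 0.083 to 1.80 for miR-101a-3p and -0.0026 to 1.51, -0.13 to 1.39 and -0.14 to 1.38 for miR-101b-3p with haloperidol, risperidone and clozapine. The correlation of the control gap with base composition stayed between -0.055 and -0.012.

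Between drugs the members' small differences changed sign often, and no setting gave an adjusted p below 0.525 in limma. With the percentile over all probes, risperidone against haloperidol was 0.32 for miR-101a-3p and 0.34 for miR-101b-3p, clozapine against haloperidol 0.32 and 0.39, and clozapine against risperidone 0.053 for miR-101b-3p; the medians of all miRNAs had moved to 0.37, 0.41 and 0.017. With normexp the first 2 comparisons gave 0.18 and 0.25, and 0.046 and 0.13, beside medians of 0.45 and 0.27. Clozapine against risperidone was 0.13 and 0.18 without scaling, 0.017 and 0.070 with the deposited gene-level signal, and 0.0014 for miR-101b-3p with quantile normalization. Leaving out single arrays gave, for miR-101a-3p and miR-101b-3p, -0.30 to 0.015 and -0.32 to 0.077 for risperidone against haloperidol, -0.67 to 0.27 and -0.56 to 0.30 for clozapine against haloperidol, and -0.53 to 0.41 and -0.44 to 0.42 for clozapine against risperidone. Where 1 array was left in a group it was assumed to vary like the others. The cause of these changes was not tested.

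limma called 0 miRNAs between drugs under all 19 alternatives. Against control the counts without single arrays ran from 0 to 5, 0 to 8 and 0 to 8. The labels do not say that equal replicate numbers share a batch. Replicate 1 minus replicate 2 correlated between groups at 0.16 to 0.72 over 243 miRNAs. With the replicate block the counts were 0, 1 and 4 against control and 0 between drugs, where the members' adjusted p lay between 0.912 and 1. Without a detection filter, 254 miRNAs above the floor on at least 1 array were fitted.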

Other observations

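Among miRNAs detected on all arrays, the 6 with the lowest control gap other than the members were miR-193-3p (-2.13), miR-301a-3p (-1.97), miR-551b-5p (-1.81), miR-487b-3p (-1.81), miR-19b-1-5p (-1.78) and miR-29b-3p (-1.75). They did not all share the family's course elsewhere. Without control replicate 1, r with the family over 7 arrays was 0.892 for miR-193-3p, 0.960 for miR-301a-3p and 0.962 for miR-29b-3p, but -0.64 for miR-551b-5p and -0.11 for miR-487b-3p, which comes from an imprinted miRNA cluster and was at the floor of the scale on control replicate 1. miR-19b-1-5p, the passenger arm beside miR-19b-3p, had r = 0.624. The mean of the 6 drug arrays minus control replicate 2 ran from -0.36 for miR-19b-1-5p to 0.46 for miR-487b-3p, beside 0.17 for miR-101a-3p and -0.088 for miR-101b-3p.

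Over 164 miRNAs, the correlation of G and C content with an array's deviation from the mean of the other arrays was 0.057 and 0.25 for control replicates 1 and 2. It was -0.29 and -0.017 for the haloperidol arrays, -0.12 and 0.39 for the risperidone arrays, and -0.10 and -0.36 for the clozapine arrays.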
